A study of Homo sapiens with 8 samples.

Results

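The genes described here are the core machinery of macroautophagy, the process that encloses cytoplasm in a double membrane and delivers it to the lysosome. Members were taken by symbol from the count table: the ATG genes, ULK1 to ULK4, the MAP1LC3 and GABARAP genes, the WIPI genes, and BECN1, PIK3C3, PIK3R4, UVRAG, RB1CC1, AMBRA1, SQSTM1, OPTN, NBR1 and TAX1BP1, without pseudogenes or antisense genes. This gave 39 of 15982 genes, and all 39 passed the filter on low counts. The rule reads symbols and uses no measured value. ATG9B, MAP1LC3C and GABARAPL3 were not analysed here.

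The RNA came from 8 cultures of the established human line 143BTK-, an osteosarcoma derivative without thymidine kinase activity. One group of 4 libraries came from cells given the mirVana mimic of hsa-miR-101-3p, and the other group of 4 from cells given mirVana Negative Control #1. All 8 cultures grew on 10 mM galactose in place of glucose, with dialysed serum at 5%, received 80 pmol of mimic at the start and again after 48 h, and were harvested at 120 h. The labels speak of 4 separate transfection experiments, numbered 1 to 4 in both groups, and the comparison asks which transcripts differ when cells receive miR-101-3p.

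Library totals ran between 17603054 and 20160267 counts. Libraries 1 and 2 lay closer to each other than to the rest in both groups (chi-square per degree of freedom 3.83 in the miR-101 group and 4.73 in the control group, against 14.5 or more and 32.3 or more for other pairs). These values are above counting noise, and all 4 libraries were kept. They do not show that libraries 1 and 2 are separate cultures, so fits with these 2 summed are given below. The p-values measure the spread between these libraries only. Of the mesenchymal markers, VIM, COL1A1, SPARC, FN1 and RUNX2 were detected, with a summed level of 1133 to 2276 counts per 1000000 (CPM) with miR-101 and 1155 to 1804 CPM in control cells; COL1A2 and THY1 were not analysed here. Among markers of other cells, EPCAM ranged from 9.30 to 17.0 CPM in miR-101 libraries and from 5.11 to 10.0 CPM in control libraries, PECAM1 ranged from 0.867 to 2.04 CPM in miR-101 libraries and from 0.860 to 3.96 CPM in control libraries, and no other epithelial or endothelial marker and no immune marker had a value. Their part in the results below was not tested. TK1 transcripts were present, from 12.4 to 17.1 CPM in the miR-101 libraries and from 12.9 to 18.1 CPM in the controls. In bulk RNA, a change in the share of cells that make a transcript and a change in the amount per cell cannot be told apart.

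Autophagy begins when the ULK1 kinase complex is released from inhibition by mTORC1, the growth kinase that senses nutrients, or is activated by AMPK, the kinase that senses low energy. A lipid kinase complex built on PIK3C3 then marks the forming membrane with phosphatidylinositol 3-phosphate (PI3P), and ubiquitin-like proteins of the ATG8 family are attached to its lipids. The ATG4 proteases cut ATG8 precursors to expose the end that is attached, and later free ATG8 proteins from the membrane. A microRNA guides Argonaute to messages that pair with its seed, bases 2 to 8 from its 5′ end, and lowers their translation and stability. miR-101 has been described as an inhibitor of autophagy in human cancer cells that acts on ATG4D, RAB5A and STMN1.

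The sequence of the mature microRNA, from RefSeq (GRCh38.p14, chr9:4850345-4850365, plus strand, copy MIR101-2), is given with its seed in capitals because the target sites are read from it. The 3′ untranslated regions (UTRs) of 5 of the 39 members hold a match in the longest annotated form. An 8mer is GTACTGTA, a match to the whole seed followed by A; a 7mer-m8 is GTACTGT and a 7mer-A1 is TACTGTA, and a gene counts under the strongest of its sites. These sites are shown 5′ to 3′ on the transcript strand, as GRCh38 sequence with the match in capitals.
hsa-miR-101-3p: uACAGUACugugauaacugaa
ATG4D 8mer: tcagggcctgactcacGTACTGTAgttt
ATG2B 7mer-m8: gcatattcatagatgcaGTACTGTgatt
ATG2B 7mer-A1: ttgcggcactccccgcaTACTGTAgatc
UVRAG 7mer-m8: aggagcttctctgcagtGTACTGTctgt
MAP1LC3B 7mer-A1: cgttagtgaaagctgttTACTGTAacgg
TAX1BP1 7mer-A1: tctactacagcttttctTACTGTAcccc

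ATG4D was the only member with an 8mer. For comparison, 4.60% of the 12438 tested genes with an annotated 3′ UTR had an 8mer as their strongest site, 8.15% a 7mer-m8 and 11% a 7mer-A1, and 23.75% had any of these. Counting every annotated isoform, 8 members held a match, OPTN, PIK3C3 and ATG5 being the other three. A match is a run of letters and does not show binding.

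Few members of the core machinery differed. ATG4D fell 2.07-fold and was the only member past an edgeR adjusted p under 0.05, which is 2.56% of the members, while 6.62% of all 15905 tested genes passed. In the same test 0 members were higher, beside 3.30% of all genes, and 3.32% of all genes were lower. DESeq2 and limma-voom also called ATG4D alone. With the replicate number as a block, edgeR called WIPI1 lower and GABARAPL1 higher besides ATG4D, and that fit also called more genes over the whole table, as given below. At an unadjusted p under 0.05 the members were ATG4D, WIPI1 and ULK1 on the lower side and GABARAPL1 and ATG12 on the higher side, 12.8% of the members against 22.3% of all genes. The 4 miR-101 libraries and the 4 control libraries did not overlap for 2 members, ATG4D and ATG12, or 5.13%, beside 15.1% of all genes.

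The log2 fold changes, always miR-101 over negative control and given with the standard error (SE), were negative for 25 members and positive for 14. The negative share was 64.1% of members and 50.7% of all tested genes. The median was -0.083 for members, beside -0.0051 for all genes, and the median size without sign was 0.144 for members and 0.204 for all genes. In 25 of 39 members the log2 fold change lay within 0.2 of 0, and in 3 it was beyond 0.5 (ATG4D, WIPI1 and GABARAPL1).

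**Figure D1:**
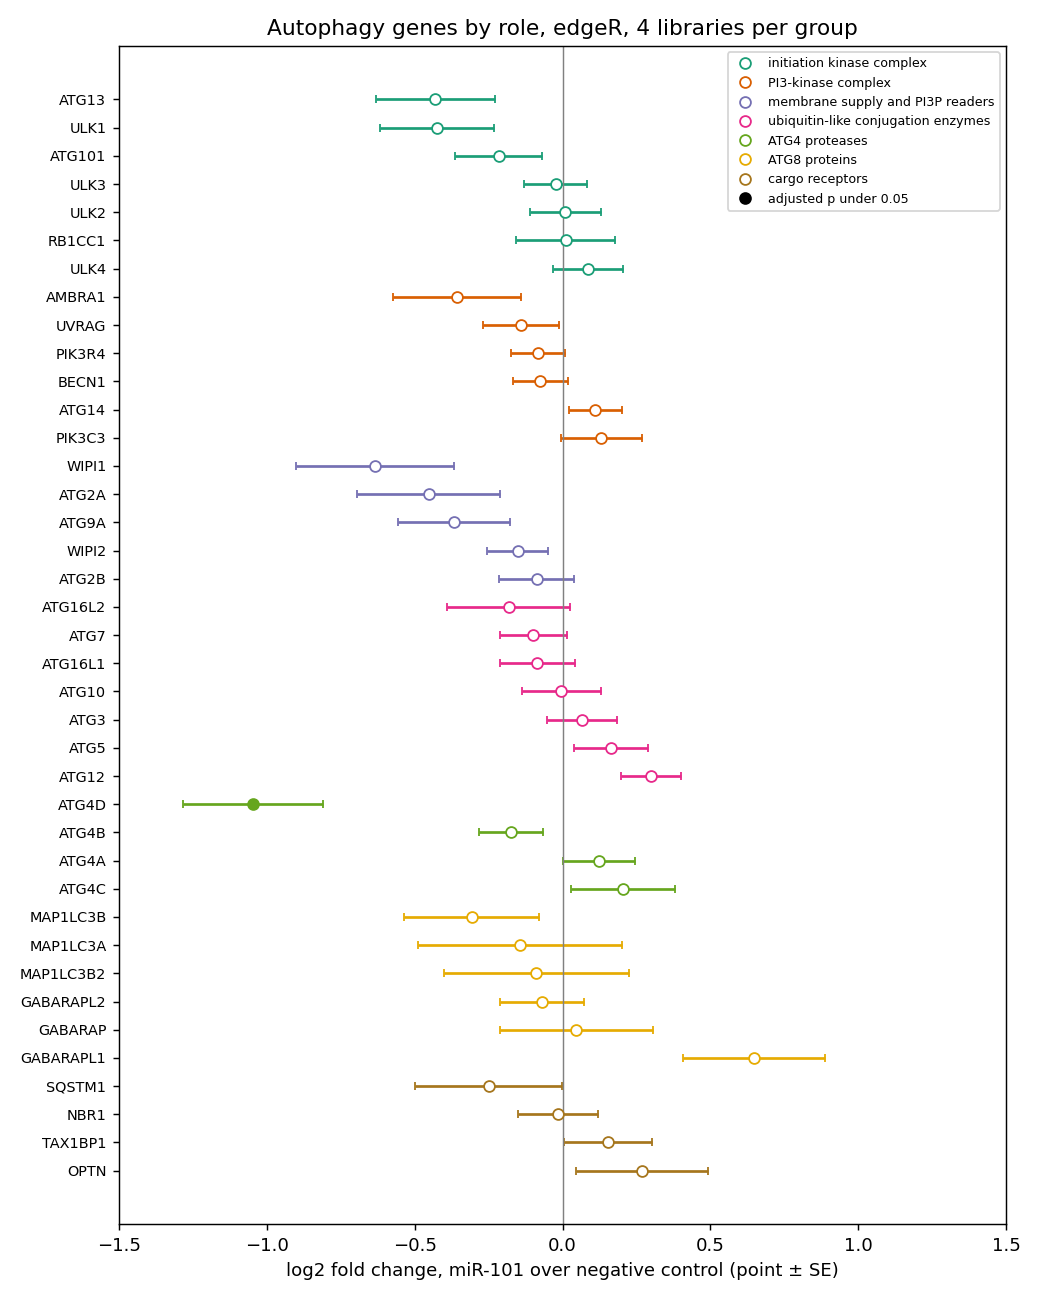
The log2 fold change of miR-101 over negative control is plotted for each of the 39 members, with bars of 1 SE, grouped and coloured by role; a filled point marks an adjusted p under 0.05. ATG4D at -1.05 is the only filled point, and WIPI1 and GABARAPL1 are the next farthest from 0.

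The initiation complex joins the kinase ULK1 with ATG13, ATG101 and the scaffold RB1CC1 (also called FIP200). ULK2, ULK3 and ULK4, taken by symbol, are grouped with it here, which does not make them its subunits. None of the 7 genes of this group passed the adjusted test by edgeR, DESeq2 or limma-voom, and 1 of 7 had an unadjusted p under 0.05. ULK1 had 2.68, 2.30, 2.89 and 1.95 CPM in miR-101 replicates 1 to 4, against 3.08, 3.29, 2.79 and 4.02 CPM in the control replicates. The groups overlapped through the third pair, and the log2 fold change was -0.43 ± 0.193 (SE; edgeR adjusted p = 0.223). ATG13, the regulatory subunit that mTORC1 phosphorylates, had 20.6, 21.2, 19.97 and 12.5 CPM with miR-101, against 25.2, 28.99, 17.5 and 28.3 CPM in control cells. It was lower with miR-101 in 3 of 4 pairs, with a log2 fold change of -0.43 ± 0.20 and an edgeR adjusted p of 0.237. ATG101, which stabilises ATG13, averaged 24.7 ± 1.5 CPM with miR-101 and 28.6 ± 6.1 CPM in control cells (SD, n = 4 each). ULK2, ULK3, ULK4 and RB1CC1 had log2 fold changes between -0.024 and 0.086. For RB1CC1 the 95% interval ran from -0.36 to 0.38; control replicate 4 had 241.7 CPM while the other 3 control replicates had 396.9 to 424.6 CPM.

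The PI3-kinase group holds the catalytic subunit PIK3C3 (VPS34), its regulatory partner PIK3R4, the scaffold BECN1, the alternative subunits ATG14 and UVRAG that direct the complex to autophagosomes or endosomes, and AMBRA1, which binds BECN1. None of the 6 passed the adjusted test by edgeR, DESeq2 or limma-voom, and none had an unadjusted p under 0.05 by edgeR. AMBRA1 had 27.0, 26.5, 19.6 and 14.4 CPM with miR-101, against 32.5, 31.9, 19.7 and 27.7 CPM in control cells. The pairs differed widely in size, and the log2 fold change was -0.36 ± 0.217 (edgeR adjusted p = 0.367). ATG14 had 81.8, 85.2, 80.5 and 76.8 CPM with miR-101 against 78.0, 74.9, 77.8 and 69.7 CPM in control cells. It was slightly higher with miR-101 in each of the 4 pairs, at a log2 fold change of 0.11 ± 0.089 (edgeR adjusted p = 0.503). BECN1 averaged 80.4 ± 2.0 CPM with miR-101 and 84.7 ± 7.1 CPM in control cells, with a 95% interval of the log2 fold change from -0.28 to 0.13. UVRAG, which carries a 7mer-m8, averaged 21.2 ± 2.8 CPM with miR-101 and 23.4 ± 2.1 CPM in control cells. Its log2 fold change of -0.14 was negative in every pair, but the 95% interval ran from -0.43 to 0.15.

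All 5 members that supply membrane or read PI3P had negative log2 fold changes, with a median of -0.37, while 50.7% of all tested genes were negative. Of 15 further membrane and PI3P factors outside the symbol rule, 9 were negative and 6 positive, so the shared sign holds for these 5 members only. None of the 5 passed the adjusted test by edgeR, DESeq2 or limma-voom, and 1 had an unadjusted p under 0.05. WIPI1, a PI3P-binding propeller protein of the forming membrane, had 26.1, 29.8, 25.3 and 17.2 CPM with miR-101, against 51.2, 48.4, 32.7 and 20.6 CPM in control cells. It was lower with miR-101 in 4 of 4 pairs, but replicate 4 was the lowest in both groups and the groups overlapped. The log2 fold change was -0.63 ± 0.266 (edgeR adjusted p = 0.190); with the replicate number as a block it was -0.58 with an edgeR adjusted p of 0.0325, and without control replicate 4 it was -0.84 with 0.0274. In replicates 1 and 2 alone the value was -0.84, and in replicates 3 and 4 alone it was -0.32. WIPI1 shares 828 exon bases with ARSG on the other strand, whose log2 fold change was -0.045 (edgeR adjusted p = 0.892).

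ATG9A, the lipid scramblase carried on vesicles to the forming membrane, had 24.4, 22.6, 24.9 and 16.0 CPM with miR-101 and 30.8, 31.3, 19.1 and 32.2 CPM in control cells. Control replicate 3 lay below 3 of the miR-101 libraries, and the log2 fold change was -0.37 ± 0.190 (edgeR adjusted p = 0.287). ATG9A shares 1833 exon bases with the annotated coding gene AC068946.2 on the same strand, so its count is uncertain. ATG2A and ATG2B are lipid transfer proteins that feed the membrane. ATG2A averaged 4.60 ± 1.4 CPM with miR-101 and 6.28 ± 1.4 CPM in control cells, with a log2 fold change of -0.45 ± 0.241. ATG2B, which carries 2 matches to the seed, averaged 65.3 ± 10.1 CPM with miR-101 and 69.4 ± 5.4 CPM in control cells, with a log2 fold change of -0.088 ± 0.125. WIPI2, the paralogue of WIPI1 that recruits ATG16L1, averaged 98.4 ± 9.6 CPM with miR-101 and 109 ± 7 CPM in control cells.

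The conjugation enzymes attach ATG12 to ATG5 and ATG8 proteins to lipid. None of the 7 passed the adjusted test by edgeR, DESeq2 or limma-voom, 1 had an unadjusted p under 0.05, and the median log2 fold change was -0.0047. ATG12, the ubiquitin-like protein itself, had 101.6, 92.1, 98.7 and 109.0 CPM with miR-101, against 80.9, 75.1, 91.7 and 78.6 CPM in control cells. Every miR-101 library lay above every control library, by a narrow margin between miR-101 replicate 2 and control replicate 3, and the log2 fold change was 0.30 ± 0.101 (edgeR adjusted p = 0.108). ATG12 shares 378 exon bases at its 5′ end with AP3S1, a subunit of the AP-3 adaptor on the other strand, which averaged 13.9 ± 3.4 CPM with miR-101 and 26.3 ± 4.5 CPM in control cells (log2 fold change -0.92, edgeR adjusted p = 0.0161). The neighbour therefore differed in the direction opposite to ATG12. ATG5, the partner of ATG12, had 41.3, 37.5, 40.3 and 51.8 CPM with miR-101, against 37.7, 34.7, 43.1 and 36.9 CPM in control cells. These groups overlapped, with a log2 fold change of 0.16 ± 0.125 (edgeR adjusted p = 0.475). ATG7, the E1-like enzyme of both conjugations, averaged 37.3 ± 2.2 CPM with miR-101 and 40.0 ± 5.1 CPM in control cells, and ATG3, the E2-like enzyme for ATG8 proteins, averaged 114 ± 10 CPM with miR-101 and 109 ± 16 CPM in control cells. ATG10, ATG16L1 and ATG16L2 had log2 fold changes between -0.18 and -0.0047.

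In the ATG4 protease family only ATG4D passed the test. ATG4D had 3.11, 4.50, 5.73 and 5.09 CPM with miR-101 (58, 90, 117 and 94 counts), against 9.39, 8.41, 6.95 and 13.3 CPM in control cells (171, 161, 112 and 278 counts). Every miR-101 library lay below every control library, closest at the third pair. There the miR-101 library held more counts than the control library, but it had a larger total and a larger normalisation factor (TMM, 1.01 against 0.915). The order in this pair therefore rests on adjustment for library size. The library totals alone (20160267 with miR-101 against 17603054 in the control) give the same order without the TMM factor. The mean was 4.61 ± 1.1 CPM with miR-101 and 9.51 ± 2.7 CPM in control cells (SD, n = 4 each), and the log2 fold change was -1.05 ± 0.237 (edgeR adjusted p = 0.0254). By pair it was -1.59, -0.90, -0.28 and -1.38 on the log2 scale. The adjusted p was 0.0758 without miR-101 replicate 1, 0.0807 without miR-101 replicate 2 and 0.0598 without control replicate 1, all edgeR. It was 0.135 with replicates 1 and 2 summed, and 0.559 in replicates 3 and 4 alone, where the log2 fold change was -0.91.

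The other 3 proteases lay on either side of 0. ATG4B, the main ATG8-processing protease in human cells, had 40.4, 44.4, 40.5 and 41.3 CPM with miR-101, against 46.1, 44.4, 42.0 and 55.5 CPM in control cells. The second pair was level, and the log2 fold change was -0.17 ± 0.110 (edgeR adjusted p = 0.382). ATG4A and ATG4C averaged 20.3 ± 2.2 CPM and 24.0 ± 5.0 CPM with miR-101, against 18.7 ± 1.5 CPM and 20.9 ± 4.1 CPM in control cells, and neither passed. ATG4D was the least abundant of the 4 in both groups. Its share of the family's summed CPM was 5.11 ± 1.36% with miR-101 and 9.81 ± 2.17% in control cells, while the sum itself was 90.6 ± 6.0 CPM with miR-101 and 96.1 ± 6.2 CPM in control cells. Per kilobase of exon, ATG4D averaged 2.02 CPM with miR-101 and 4.18 CPM in control cells, below the other 3 (6.28 to 7.72 CPM with miR-101, 6.38 to 7.08 CPM in control cells).

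**Figure D2:**
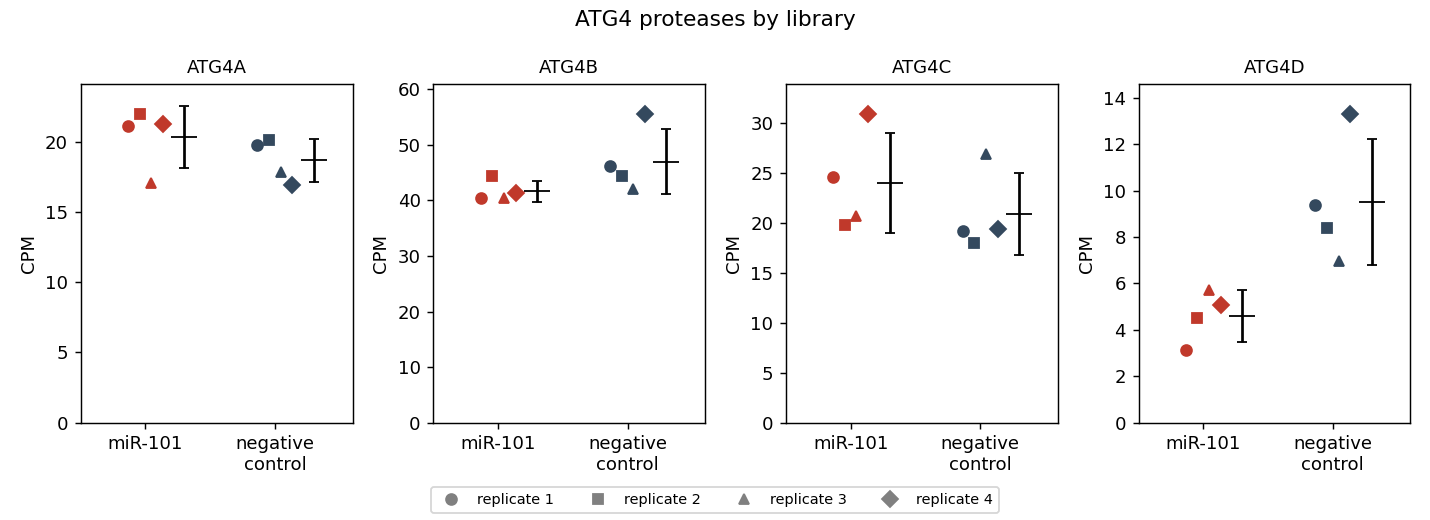
CPM of the 4 ATG4 proteases in each library, with a marker shape for each replicate number and, beside each group, the mean with 1 SD. The 4 miR-101 libraries of ATG4D lie at 3.11 to 5.73 CPM, below the control libraries at 6.95 to 13.3 CPM, while the groups of the other 3 proteases overlap.

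ATG4D lies at chr19:10543895-10553418 on the plus strand of GRCh38. Its 8mer, in the 3′ UTR shown above, is at positions 10553322 to 10553329, 89 bases before the annotated end of the gene. The last 341 bases of ATG4D, positions 10553078 to 10553418, are also exon of KRI1, a nucleolar protein gene read from the other strand, and the site falls inside this shared stretch. Whether the counts used the strand is not given, so part of either gene's count may belong to the other. KRI1 averaged 35.8 ± 4.2 CPM with miR-101 and 29.5 ± 5.8 CPM in control cells, a log2 fold change of 0.28 ± 0.154 (edgeR adjusted p = 0.327), and so did not share the fall of ATG4D.

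The ATG8 family counts 6 members here. None passed the adjusted test by edgeR, DESeq2 or limma-voom, and 1 had an unadjusted p under 0.05. GABARAPL1, a member of the GABARAP branch, had 33.9, 34.4, 22.6 and 19.99 CPM with miR-101, against 23.2, 21.1, 14.3 and 12.2 CPM in control cells. It was higher with miR-101 in 4 of 4 pairs, and both groups were lower in replicates 3 and 4 than in replicates 1 and 2. The log2 fold change was 0.65 ± 0.240 (edgeR adjusted p = 0.142); with the replicate block it was 0.65 with an edgeR adjusted p of 0.00714. The value was 0.62 in replicates 1 and 2 alone and 0.68 in replicates 3 and 4 alone. MAP1LC3B, the LC3 protein most used to follow autophagosomes, had 15.2, 13.9, 14.1 and 16.7 CPM with miR-101, against 19.5, 17.0, 27.1 and 10.8 CPM in control cells. The miR-101 libraries were close together and the control libraries spread around them, with a log2 fold change of -0.31 ± 0.229 (edgeR adjusted p = 0.464).

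GABARAPL2 averaged 36.9 ± 2.5 CPM with miR-101 and 38.8 ± 7.5 CPM in control cells. MAP1LC3A, MAP1LC3B2 and GABARAP stood between 0.271 and 1.68 CPM in every library of either group, and their 95% intervals reached from at most -0.52 to at least 0.60 on the log2 scale. MAP1LC3B2 is a near copy of MAP1LC3B, and GABARAP shares 691 exon bases with AC120057.2 on the same strand, so both counts are uncertain. GABARAPL1 made up 33.2 ± 6.1% of the family's summed CPM with miR-101 and 22.8 ± 5.1% in control cells, and MAP1LC3B made up 18.3 ± 2.6% with miR-101 and 23.4 ± 4.7% in control cells.

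The cargo receptors bind ubiquitin-marked cargo and ATG8 proteins. None of the 4 passed the adjusted test by edgeR, DESeq2 or limma-voom, and none had an unadjusted p under 0.05 by edgeR. SQSTM1 (p62) had 690, 770, 422 and 415 CPM with miR-101, against 856, 850, 486 and 539 CPM in control cells. This receptor, named after its values were seen, was lower with miR-101 in 4 of 4 pairs, but replicates 1 and 2 stood above replicates 3 and 4 in both groups by more than the groups differed. The log2 fold change was -0.25 ± 0.249 (edgeR adjusted p = 0.600). OPTN, a receptor for mitochondria and bacteria, had 31.2, 34.1, 34.0 and 24.1 CPM with miR-101, against 31.5, 31.3, 25.1 and 14.6 CPM in control cells. Its libraries overlapped, with a log2 fold change of 0.27 ± 0.222 (edgeR adjusted p = 0.515). TAX1BP1, a receptor with a 7mer-A1, had 70.8, 68.8, 77.1 and 80.6 CPM with miR-101, against 69.5, 66.7, 83.0 and 48.3 CPM in control cells. Its groups overlapped and the third pair was lower with miR-101, at a log2 fold change of 0.15 ± 0.149 (edgeR adjusted p = 0.591). NBR1, which binds ubiquitin like SQSTM1, averaged 204 ± 19 CPM with miR-101 and 207 ± 35 CPM in control cells.

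**Figure D3:**
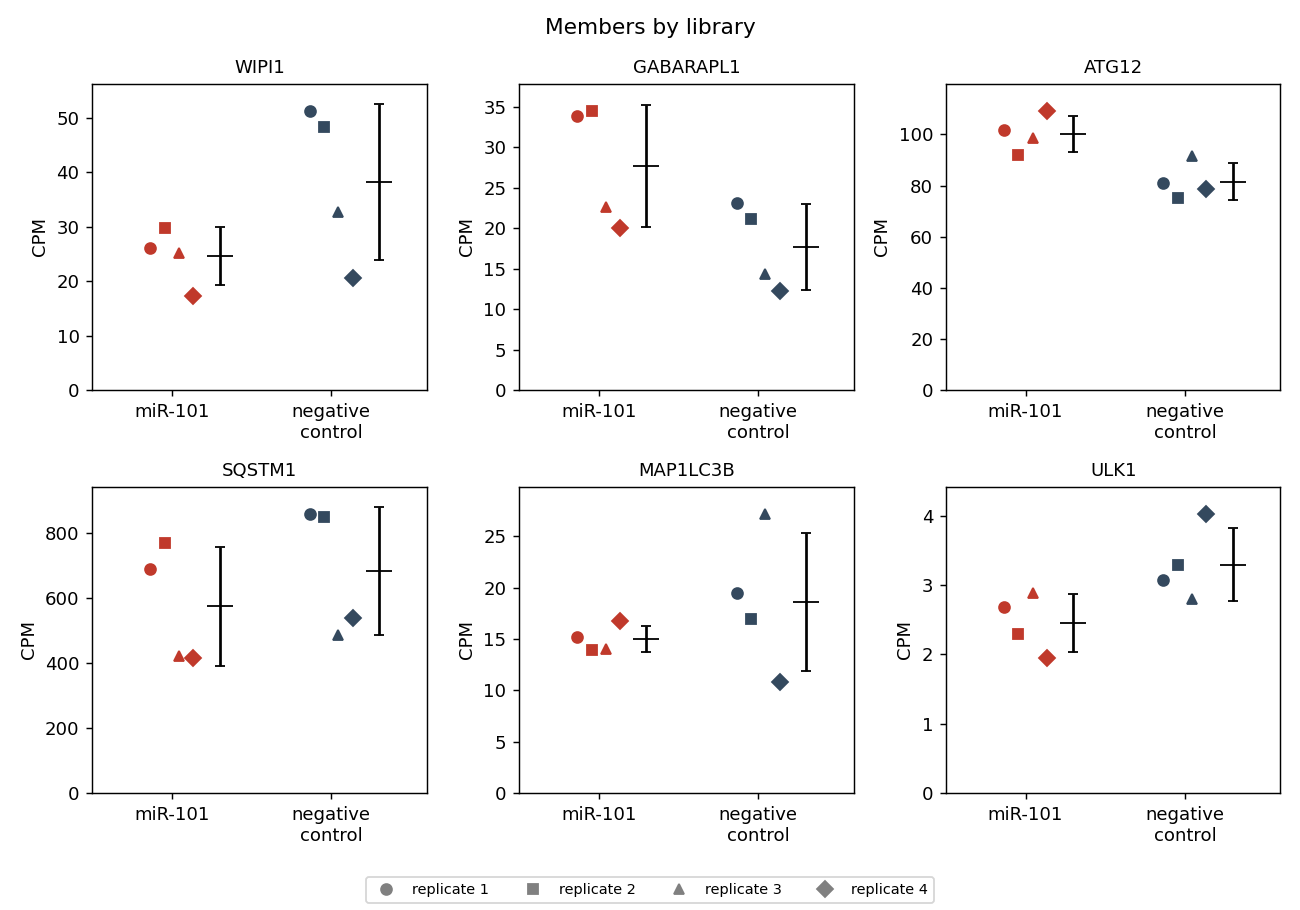
CPM of 6 members in each library, with a marker shape for each replicate number and, beside each group, the mean with 1 SD. Replicates 1 and 2 of SQSTM1, GABARAPL1 and control WIPI1 stand above replicates 3 and 4, and the ATG12 groups are the only ones here that do not overlap.

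Members differed far more in level than between groups. Per kilobase of exon, SQSTM1 was highest (75.0 ± 23.9 CPM in miR-101 libraries, 89.2 ± 25.9 CPM in control libraries), followed by RB1CC1 (49.1 ± 4.4 CPM in miR-101 libraries, 48.8 ± 11.5 CPM in control libraries). NBR1, PIK3R4 and ATG16L1 came next, each within 1 SD of its neighbour in control cells (24.6 ± 4.2, 22.9 ± 1.7 and 20.8 ± 2.8 CPM per kilobase). At the low end stood ATG16L2 (0.189 ± 0.017 CPM in miR-101 libraries, 0.214 ± 0.045 CPM in control libraries), with MAP1LC3A, ULK1 and GABARAP just above it. Lengths are those of merged annotated exons, and 21 members share exon bases with another gene, 15 of them with a coding gene of the table.

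**Figure D4:**
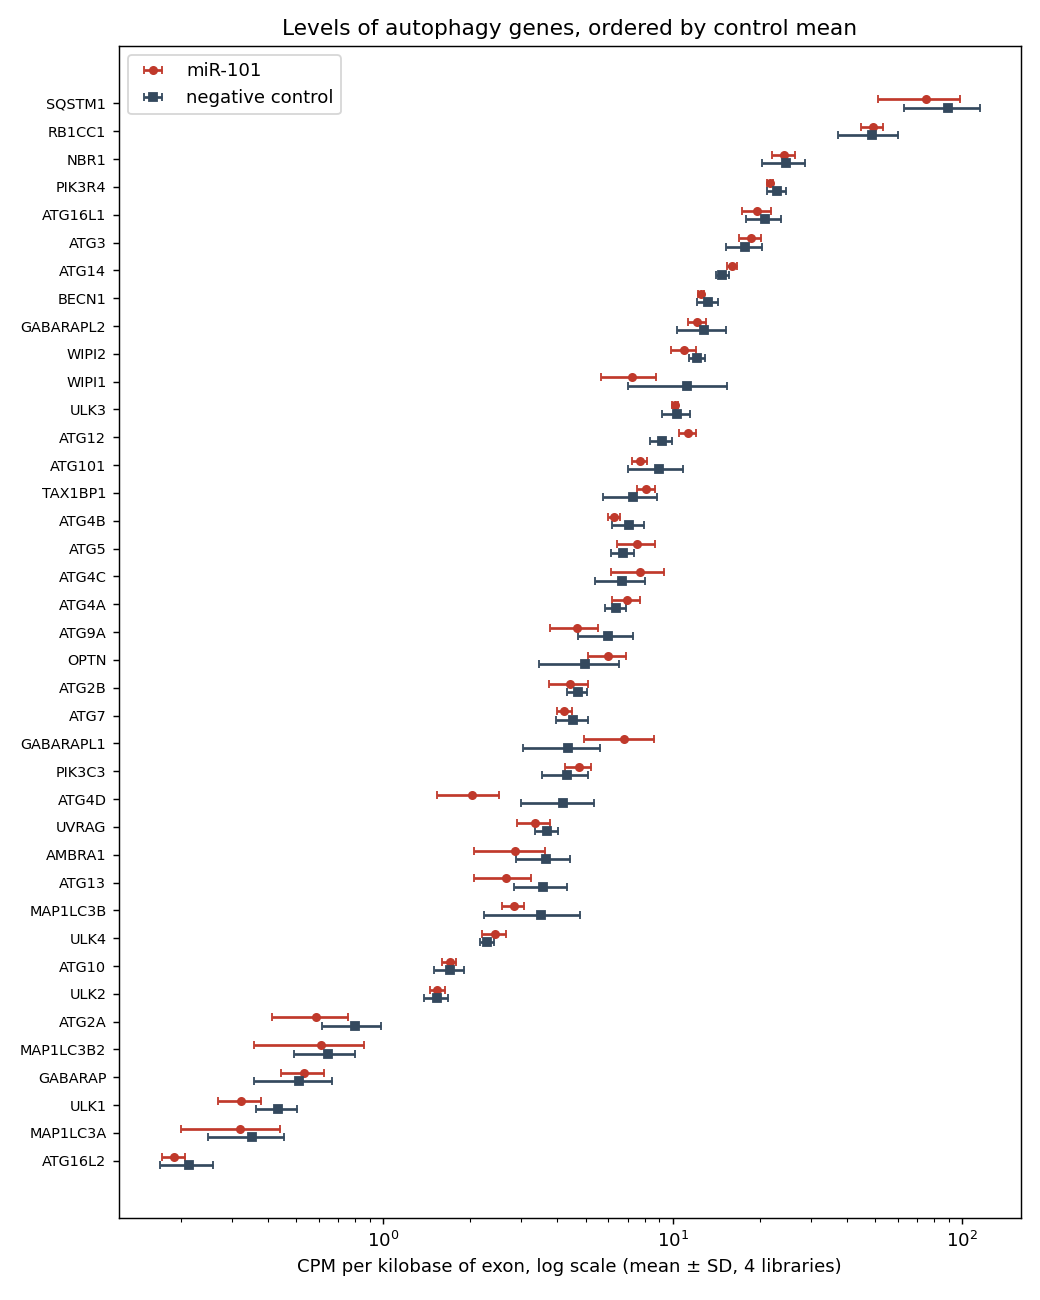
CPM per kilobase of exon on a log scale for the 39 members, ordered by the control mean, with bars of 1 SD over 4 libraries. The order runs from SQSTM1 at 75.0 (miR-101) and 89.2 (control) to ATG16L2 at 0.189 (miR-101) and 0.214 (control), and ATG4D stands at 2.02 (miR-101) and 4.18 (control).

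Across all tested genes with a 3′ UTR, the median log2 fold change was -0.26 for genes with an 8mer, -0.096 for those with a 7mer-m8, 0.0034 for those with a 7mer-A1 and -0.012 for those with none. The share called lower was 21.9%, 8.58%, 2.85% and 2.44% in that order. Of the 5 members with a match, 4 had a negative log2 fold change, with a median of -0.14 and a range from -1.05 (ATG4D) to 0.15 (TAX1BP1). Of the 34 members without one, 21 were negative, with a median of -0.073.

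Outside the core machinery, 7 lists of autophagy-related genes held 115 tested genes, ATG4D included. By the edgeR adjusted test 7 were lower, or 6.09% beside 3.32% of all genes, and 0 were higher, beside 3.30%. Without ATG4D, 6 of 114 were lower. ATG4D and RAB5A belong to the list of 3 genes taken as described targets of miR-101. The share of 6.09% is therefore not that of a list chosen without regard to miR-101. At an unadjusted p under 0.05 there were 14 lower and 6 higher, together 17.4% beside 22.3% of all genes. DESeq2 called 9 of the 115, with VMP1 and FNIP2 on the higher side, and limma-voom called 6, all lower. Over all 7 lists the median log2 fold change was -0.032.

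Of the 3 autophagy targets described for miR-101, ATG4D and RAB5A fell and STMN1 did not pass. RAB5A, the small GTPase of early endosomes, had 32.9, 36.3, 46.6 and 39.6 CPM with miR-101, against 69.2, 67.8, 89.6 and 65.0 CPM in control cells. The groups were well apart, with a log2 fold change of -0.91 ± 0.141 (edgeR adjusted p = 0.00452), although the adjusted p was 0.0558 with replicates 1 and 2 summed. STMN1, a microtubule-destabilising protein, had 31.9, 27.7, 49.0 and 64.6 CPM with miR-101, against 78.3, 61.0, 138 and 45.3 CPM in control cells. The first 3 pairs were lower with miR-101 and the fourth was higher, so that its log2 fold change of -0.90, close to that of RAB5A, came with an SE of 0.345 (edgeR adjusted p = 0.155).

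Among 34 regulators of mTORC1 and AMPK, 1 passed. PRKAA1, the alpha-1 catalytic subunit of AMPK, had 99.3, 90.0, 120 and 114 CPM with miR-101, against 154, 165, 198 and 199 CPM in control cells, a 1.69-fold fall (log2 fold change -0.76 ± 0.129, edgeR adjusted p = 0.00661). It was lower in 4 of 4 pairs by similar amounts, and the adjusted p was 0.0588 with replicates 1 and 2 summed. PRKAA2, the alpha-2 subunit, is named here after its values were seen: it averaged 84.9 ± 12.1 CPM with miR-101 and 61.8 ± 13.5 CPM in control cells (log2 fold change 0.46 ± 0.164, edgeR adjusted p = 0.129). With the replicate block PRKAA2 was called higher and DEPTOR lower in this list. The median log2 fold change of the list was 0.014, and that of the 15 further membrane and PI3P factors was -0.020. Among those 15, TP53INP2, which carries ATG8 proteins to the forming membrane, averaged 1.48 ± 0.14 CPM with miR-101 and 2.58 ± 0.54 CPM in control cells (log2 fold change -0.79 ± 0.205, edgeR adjusted p = 0.0440). Its call rests on 26 to 53 counts a library and held in 1 of the 8 fits that left out a library. VMP1, an ER scramblase needed for autophagosome formation and named here after its values were seen, had 1023, 926, 749 and 805 CPM with miR-101, against 687, 634, 660 and 375 CPM in control cells. Its groups did not overlap, at a log2 fold change of 0.57 ± 0.184 (edgeR adjusted p = 0.0943), and it was called higher by DESeq2 and with the replicate block. VMP1 shares 72 exon bases with MIR21 on the same strand, so part of its count may come from that gene. It also shares 162 exon bases with PTRH2 on the other strand, whose log2 fold change was 0.19 (edgeR adjusted p = 0.272).

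Selective autophagy of mitochondria and of the endoplasmic reticulum (ER) held 3 further falls. They were 1 of 11 tested genes for mitochondria and 2 of 12 for the ER and other cargo. Over all tested genes 3.32% were called lower, and whether these small lists differ from that share was not tested. PINK1, the kinase that marks damaged mitochondria, had 34.5, 39.6, 31.4 and 40.8 CPM with miR-101, against 56.2, 55.2, 47.4 and 91.0 CPM in control cells. The groups did not overlap (log2 fold change -0.77 ± 0.191, edgeR adjusted p = 0.0368), and control replicate 4 stood above the others: without it the log2 fold change was -0.53 with an edgeR adjusted p of 0.0209. The PINK1 call held in 2 of the 8 fits that left out a library, with an adjusted p of up to 0.109. PINK1 shares 1907 exon bases with PINK1-AS on the other strand, whose log2 fold change was 0.045. ATL3, an ER-shaping GTPase and ER-phagy receptor, had 92.3, 92.1, 117 and 120 CPM with miR-101, against 190, 186, 249 and 265 CPM in control cells. This 2.11-fold fall was even among the 4 pairs, with log2 values from -1.14 to -1.02 (log2 fold change -1.08 ± 0.15, edgeR adjusted p = 0.00271). RTN3, a reticulon that acts as a receptor for ER tubules, averaged 21.0 ± 3.1 CPM with miR-101 and 30.1 ± 3.1 CPM in control cells (log2 fold change -0.52 ± 0.134, edgeR adjusted p = 0.0431), and its call was lost whichever of the 8 libraries was left out.

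Neither the 13 tested fusion factors nor the 27 tested lysosomal genes held a call by edgeR, DESeq2 or limma-voom. At an unadjusted p under 0.05, 2 fusion genes were higher and 1 was lower, and 2 lysosomal genes passed, MITF on the lower side among them. The median log2 fold changes were 0.061 and -0.037. With the replicate block VPS16 was called higher in the fusion list, and CTSB higher and MITF lower in the lysosomal list.

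**Figure D5:**
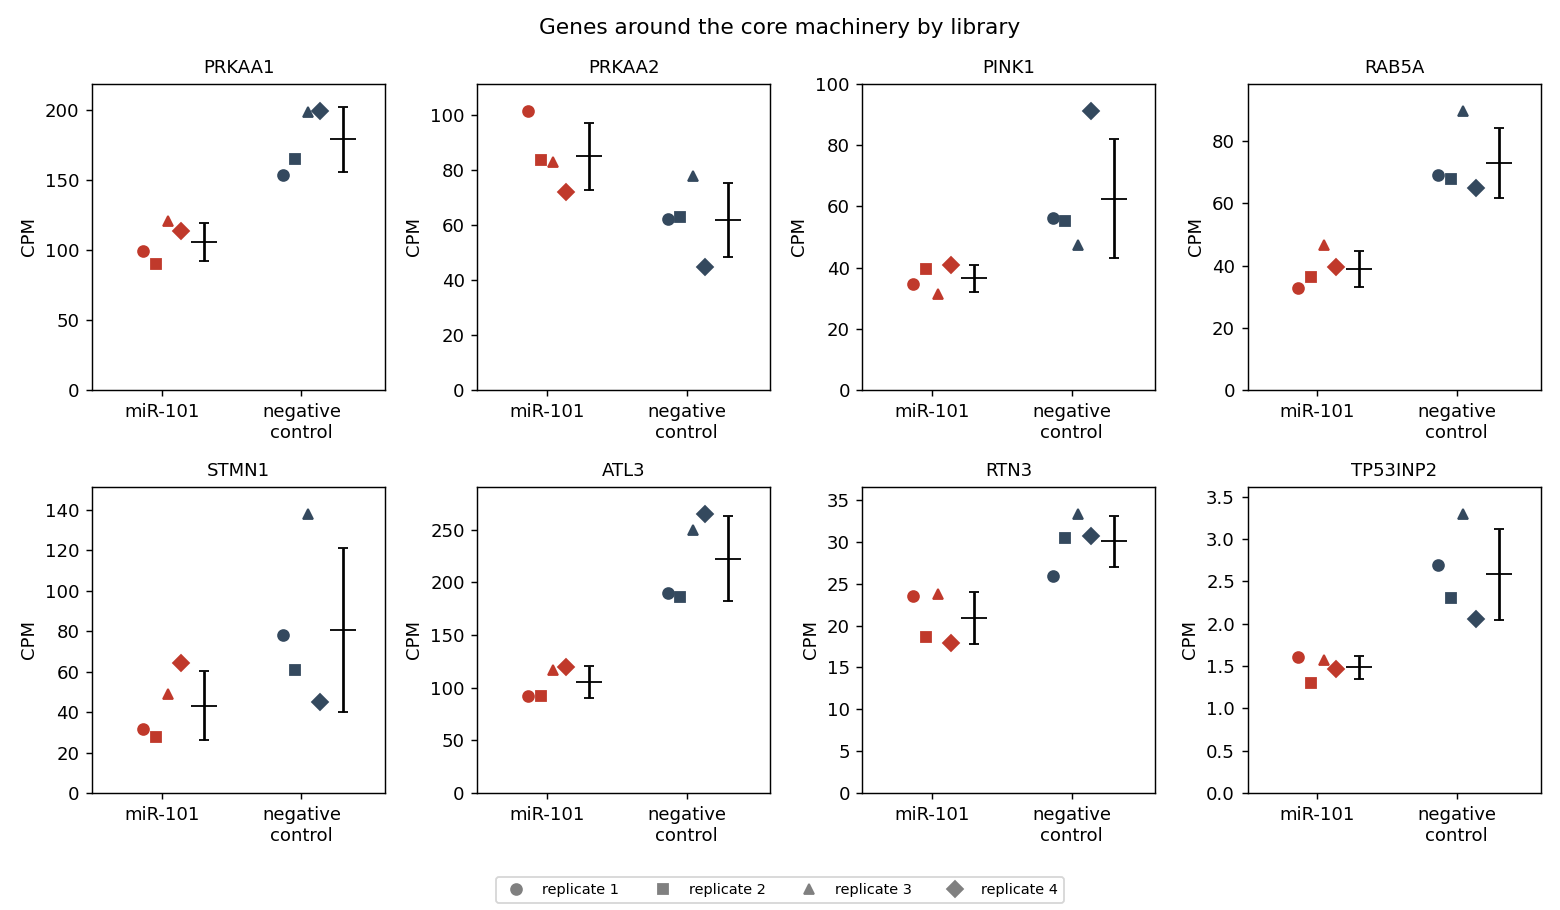
CPM of 8 genes around the core machinery in each library, with a marker shape for each replicate number and, beside each group, the mean with 1 SD. The miR-101 libraries of PRKAA1, PINK1, RAB5A, ATL3, RTN3 and TP53INP2 lie below all control libraries, while those of PRKAA2 and STMN1 overlap the control libraries.

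The sites of the genes that fell outside the core machinery and of STMN1 are shown to be set beside that of ATG4D, as GRCh38 sequence of the transcript strand with the match in capitals.
RAB5A 8mer: aattcgatcttcagctGTACTGTAaata
RAB5A 7mer-m8: ttaaaagcatacaaaatGTACTGTtact
STMN1 8mer: actgggttaatggctaGTACTGTAttgg
PRKAA1 8mer: gttttttgccagaaatGTACTGTAtaca
PRKAA1 7mer-A1: aagagctgagttgcataTACTGTAgata
ATL3 7mer-m8: ttttgagacggactcttGTACTGTcacc
ATL3 second 7mer-m8: aaaatgatttgttaaaaGTACTGTctgc
TP53INP2 7mer-A1: agcatcagcccttgtcaTACTGTAttga

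PINK1 and RTN3 held no match in their longest 3′ UTR. Of 7 genes in these lists with an 8mer, ATG4D apart, 5 had negative log2 fold changes and 2, RAB5A and PRKAA1, were called. The median of these 7 was -0.76, and 21.9% of all tested genes with an 8mer were called lower. The others of this site class spread on either side of 0. SH3GLB1, with 3 matches, had a log2 fold change of -0.061 ± 0.101, BCL2 had 0.17 ± 0.201 and SESN3 had 0.41 ± 0.333. MITF had -1.20 ± 0.453 and STMN1, listed as a described target, had -0.90 ± 0.345. None of these others passed the edgeR adjusted test. The 90 genes of these lists without a match had a median of -0.026, with 48 negative.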

How the data were processed

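The authors deposited whole-number read counts per gene for 8 libraries, not normalised. The tools named in the submitters' processing notes are TopHat2 2.0.14, StringTie 1.2.4 and bcl2fastq 2.18.0.12, with the hg38 build; no source used here gives the counter, the annotation or any use of strand. Per the labels' protocols, RNA was isolated with a mirVana kit and libraries were made after Ribo-zero Gold depletion.

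All genes were tested with edgeR 4.0.16 (R 4.3.3, limma 3.58.1): filterByExpr, TMM factors, glmQLFit and glmQLFTest on the group alone, with Benjamini-Hochberg adjustment over 15905 genes. Genes with an adjusted p under 0.05 are called. CPM are counts per 1000000 of the TMM-adjusted library size. The filter removed no member. The 95% intervals use the t distribution.

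Members and lists were chosen with earlier results of these data known. Full values are given for called members, for the 3 described targets, and for the 2 smallest p in each role; in the other lists, called genes are named, with genes that overlap these as a check. Any other gene was picked with its values in view. One result is not reported here.

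Same-numbered libraries deviated together from their group means (correlations over genes 0.328, 0.425, 0.185 and 0.209), and by the limit set for this check, a correlation above 0.1 in every pair, the numbers were taken to pair the cultures. Some differently numbered libraries correlated more closely (miR-101 replicate 4 and control replicate 3, 0.391; miR-101 replicate 1 and control replicate 2, 0.372), so the pairing is not clear-cut. The fit with a replicate block is given where it changes a call. Alternatives were DESeq2 1.42.0, limma-voom, RLE factors, no filter, leaving out each library, and replicates 1 and 2 summed or alone.

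Exon lengths, overlaps and 3′ UTRs came from GENCODE 29 (GRCh38), which matched 14077 symbols by name and 290 by an older name, with 1615 unmatched; all 39 members matched. The microRNA sequence came from RefSeq.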

Additional observations from a re-analysis of the deposited data

Results flagged for a closer look

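In each group of 4 libraries, a library was marked when its gap to the nearest other library passed Dixon's 95% limit as a share of the group's range, which chance gives in about 5% of groups. Of 92 groups in 46 named genes, 6 were marked. ATG13 had 12.5 CPM in miR-101 replicate 4, where the other 3 had 19.97 to 21.2 CPM. ATG4A had 17.0 CPM in miR-101 replicate 3, where the others had 21.1 to 21.9 CPM, and PIK3C3 had 83.2 CPM in the same library, where the others had 67.5 to 69.1 CPM. ATG4C had 26.9 CPM in control replicate 3, where the others had 18.0 to 19.4 CPM, and ATG9A had 19.1 CPM in that library, where the others had 30.8 to 32.2 CPM. RB1CC1 had 241.7 CPM in control replicate 4, where the others had 396.9 to 424.6 CPM. None of these genes was called.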

How the results depend on the processing

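The choice of libraries moved the counts of calls more than the tool did. Over all genes 1053 were called in the main design, 1051 with RLE factors, 1054 with no filter, 1059 with limma-voom and 1714 with DESeq2. Leaving out 1 library gave 488 to 1419, replicates 1 and 2 summed gave 173, replicates 1 and 2 alone 5126 and replicates 3 and 4 alone 6. With the replicate block, which uses the pairing, 1676 genes were called, with 3 members (ATG4D and WIPI1 lower, GABARAPL1 higher) and 13 genes of the related lists, against 1 and 7 without it. The block changed no other call among members. Leaving out 1 library gave 0 to 2 members and 3 to 8 related genes. Summing replicates 1 and 2 gave 0 and 1, with 2 members at an unadjusted p under 0.05. Replicates 3 and 4 alone gave 0 and 0, again with 2 members at that p. Replicates 1 and 2 alone gave 11 members (2 higher, 9 lower) and 44 related genes, but their 2 libraries a group lie close together. The cause of these shifts was not tested. The ATG4D call was kept with DESeq2 (adjusted p = 0.000826), limma-voom (0.0272) and the block (0.0232), and without each of 5 libraries in turn. Of 21 genes refitted under each alternative, 0 changed direction. These 21 had been picked as called genes, as described targets or for the smallest p in their role, so a stable direction was likely from the outset. Between replicates 1 and 2 alone and replicates 3 and 4 alone, 9 of the 39 members had opposite signs (ATG2B, ATG3, ATG10, ATG16L1, MAP1LC3A, NBR1, RB1CC1, ULK2 and ULK3), none of them called in either. Of these 9, 0 were among the 21 refitted genes. In the alternatives the members' median log2 fold change ran from -0.10 to -0.027. Depth limits ATG4D to 58 to 278 counts a library and leaves MAP1LC3A and GABARAP with fewer.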
